A study of Mus musculus with 27 samples.

Results

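The proliferin genes Prl2c2 and Prl2c3, the granule protease genes Gzmd, Gzme and Mcpt8 and the steroid enzyme gene Akr1c18 were followed across cultured mouse lung fibroblasts. They are 6 of the 48440 genes in the count table, and all 6 were among the 18684 genes that passed the filter on low counts over all groups together. They had been chosen by measured RNA levels, for large rises after 15 d of the ATM kinase inhibitor KU60019 and in late DMSO culture, so their values in those contrasts are given below as a description, with no test. The study used primary fibroblasts cultured from lungs of wild-type C57BL/6 mice, with 27 RNA libraries in 9 groups of 3. Cells received 3 uM KU60019 or the vehicle DMSO for 15 d or for 35 d. In 4 further groups the compound or vehicle had been taken away after 15 d or 35 d and cells were harvested 20 d later, which is called removed here. A last group was harvested 10 d after 10 Gy of X-rays, with no vehicle or compound named for it. KU60019 blocks ATM, the kinase that signals DNA double-strand breaks.

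Library titles run from S1_705 to S27_716, and in each group the 3 libraries differ in their end number. Nothing says whether these numbers stand for animals or cultures, and the p-values then cover no more than the spread of these samples, which may be technical. Depth ran from 20659745 to 50859493 counts per library, with a median of 31265114. More than 0.4% of counts fell on ribosomal RNA genes in 4 libraries, which are S7_705 of DMSO 15 d removed, S19_705 and S20_715 of DMSO 35 d removed, and S27_716 of the irradiated cells. The highest of these shares was 3.06%, in S19_705. Mitochondrially encoded RNAs took 5.08% to 6.61% of counts in KU60019 35 d and at most 3.77% elsewhere. Levels are CPM on TMM-scaled library sizes, as mean ± SD of 3 libraries, and values of single libraries follow the order of their titles. Fold changes are on the log2 scale ± SE, and p-values are Benjamini-Hochberg adjusted over all 18684 genes, from edgeR's quasi-likelihood test with a threshold of 0.05. In bulk RNA, fewer expressing cells and less RNA per cell cannot be told apart. How many of all tested genes had no overlap of libraries between groups was not counted, so a lack of overlap is given as description.

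Proliferins are secreted hormones of the prolactin family that trophoblast giant cells of the mouse placenta release in large amounts, and they were also found early on as growth factor-induced products of cultured mouse fibroblasts. They bind the cation-independent mannose 6-phosphate receptor, which Igf2r encodes. Granzymes are serine proteases stored in the granules of cytotoxic lymphocytes, and granzymes D and E belong to a cluster of rodent granzymes made by activated T cells and by natural killer cells of the pregnant uterus. Mcpt8 encodes a related granule protease best known from basophils. Akr1c18 encodes 20-alpha-hydroxysteroid dehydrogenase, which turns progesterone into a less active steroid, above all in the corpus luteum.

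All 6 genes are protein coding and lie on the minus strand (GRCm38, the build named mm10, GENCODE M21). Akr1c18 lies at chr13:4132615-4150654, Prl2c3 at chr13:12790816-12800079 and Prl2c2 at chr13:12996125-13005383. The 3 protease genes lie close together, Mcpt8 at chr14:56082166-56085273, Gzme at chr14:56117626-56120625 and Gzmd at chr14:56129556-56132608. Ctsg, the gene of the neutrophil protease cathepsin G, sits between Mcpt8 and Gzme and had 0 counts in all 27 libraries. It was singled out after its values had been seen.

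Several of these genes have near copies. The longest coding transcripts of Prl2c2 and Prl2c3 were identical at 838 of 842 aligned bases (99.5%), and those of Gzmd and Gzme at 868 of 916 (94.8%). Of all 50-base windows of the Prl2c2 transcript, 89.5% also occurred in transcripts of other genes, against 78.6% for Prl2c3, 21.9% for Gzmd, 20.6% for Gzme, 0.608% for Akr1c18 and 0 for Mcpt8. How the authors counted reads that fit several copies is not stated in the labels or headers, and the split between Prl2c2 and Prl2c3, and in part that between Gzmd and Gzme, is uncertain. The summed level of both proliferin genes does not depend on the split between them. It would still be too low if reads that fit several copies were left out. It may also hold reads of other copies, since Prl2c2 windows also occurred in Gm7040 (23.8%) and Prl2c5 (18.5%).

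The upstream regions show how far the copies extend beyond the transcripts. Below are the bases that end just before the outermost annotated start of each gene, 5′ to 3′, from RefSeq's promoter windows on GRCm38.p6. Prl2c3 stands beside Prl2c5, a proliferin copy outside the set with few counts, and Gzmd beside Gzme. Capitals mark the single motif match described after them.
Prl2c3 (chr13:12800080-12800329, minus strand): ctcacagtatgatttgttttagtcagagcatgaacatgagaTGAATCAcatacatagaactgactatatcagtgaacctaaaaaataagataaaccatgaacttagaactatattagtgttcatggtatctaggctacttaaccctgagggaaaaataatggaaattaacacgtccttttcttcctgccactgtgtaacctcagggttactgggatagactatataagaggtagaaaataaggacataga
Prl2c5 (chr13:13182466-13182714, plus strand): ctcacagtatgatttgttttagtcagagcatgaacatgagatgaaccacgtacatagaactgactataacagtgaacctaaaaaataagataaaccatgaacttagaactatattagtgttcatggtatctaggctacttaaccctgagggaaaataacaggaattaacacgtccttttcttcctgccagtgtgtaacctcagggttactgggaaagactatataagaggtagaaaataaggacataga
Gzmd (chr14:56132609-56132843, minus strand): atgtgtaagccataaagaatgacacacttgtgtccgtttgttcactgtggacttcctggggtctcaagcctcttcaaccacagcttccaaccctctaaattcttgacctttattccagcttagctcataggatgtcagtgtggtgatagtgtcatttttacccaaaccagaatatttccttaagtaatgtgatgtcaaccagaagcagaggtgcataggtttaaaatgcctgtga
Gzme (chr14:56120626-56120875, minus strand): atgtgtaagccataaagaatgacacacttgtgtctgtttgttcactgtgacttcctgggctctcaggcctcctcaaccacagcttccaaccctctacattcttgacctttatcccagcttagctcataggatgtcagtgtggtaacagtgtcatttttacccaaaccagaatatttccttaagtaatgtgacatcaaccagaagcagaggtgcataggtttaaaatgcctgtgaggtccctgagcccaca
The Prl2c3 and Prl2c5 stretches matched at 241 of 249 aligned bases (96.8%), and those of Gzmd and Gzme at 224 of 234 (95.7%). With such like upstream bases, Prl2c5 reached at most 0.843 CPM as a group mean and Prl2c3 24.1 CPM. Both strands of the upstream windows of the 5 members with an entry, and of Prl2c5, were searched for short strings. These were TATAAA (one form of the TATA box), TGANTCA (bound by AP-1), TGACGTCA (bound by CREB) and TTCNNNGAA (bound by STAT factors). The single match to these strings was TGAATCA in Prl2c3, a form of TGANTCA, 209 to 203 bases before the start. Other forms of the TATA box were not searched for, and tatataag stands near the end of both proliferin stretches printed above. The lack of TATAAA therefore does not mean that a TATA box is missing. Among 27025 mouse promoters, 6.87% held TGANTCA in the 250 bases before the start, 13% TATAAA, 1.62% TGACGTCA and 7.18% TTCNNNGAA. A match is a run of letters and not a measured binding site.

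The libraries carried fibroblast RNA throughout. The 10 fibroblast markers, collagens and Pdgfra among them, summed to between 9348 and 51443 CPM, lowest in KU60019 15 d and highest in DMSO 15 d removed, and Dcn, the gene of the matrix proteoglycan decorin, was at 102 CPM in DMSO 35 d removed against group means of 528 to 2150 CPM elsewhere. Cytotoxic lymphocyte markers, which granzymes could come with, summed to 0.0381 to 1.23 CPM over 12 genes, with Ncr1 and Gzma at 0 counts in every library and Prf1, the gene of perforin, at 2 counts in all libraries together. Their sum was 0.125 to 0.268 CPM in KU60019 15 d, where the granzymes were highest, and 0.305 to 0.358 CPM in DMSO 15 d, while the irradiated libraries had the highest sums, 0.532 to 1.23 CPM. Of that list only Nkg7, a granule membrane gene, passed the filter, with at most 0.598 CPM as a group mean. Mast cell and basophil markers, the usual companions of Mcpt8, summed to 1.65 to 2.32 CPM in KU60019 15 d and 0.698 to 1.10 CPM in DMSO 35 d removed, below the 5.2 to 7.26 CPM of DMSO 15 d and the 3.96 to 6.19 CPM of DMSO 35 d. In DMSO 35 d that sum was mostly Cpa3, a carboxypeptidase gene, at 4.46 CPM, and in DMSO 15 d it was mostly Cpa3 (3.66 CPM) and the receptor gene Kit (1.58 CPM). Of the IgE receptor chain genes in the list, Fcer1a had 2 counts in all libraries together, while Ms4a2, with 19 counts in all, was highest at 0.129 CPM in DMSO 35 d removed and 0.0696 CPM in KU60019 15 d and had 0 counts in the other 3 DMSO groups. The chymase gene Cma1, with 13 counts in all, was highest in DMSO 35 d removed too, at 0.0871 CPM. Whether these few counts bear on Mcpt8 was not tested. Trophoblast markers summed to 0.172 to 5.10 CPM over 11 genes, with Cdx2 at 0 counts. Their sums of 1.36 to 5.10 CPM in DMSO 35 d removed, where the proliferins were also highest, included 1.87 ± 1.95 CPM of the keratin gene Krt18 and 0.689 ± 0.0654 CPM of Ascl2, and their part in the result was not tested.

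**Figure D1:**
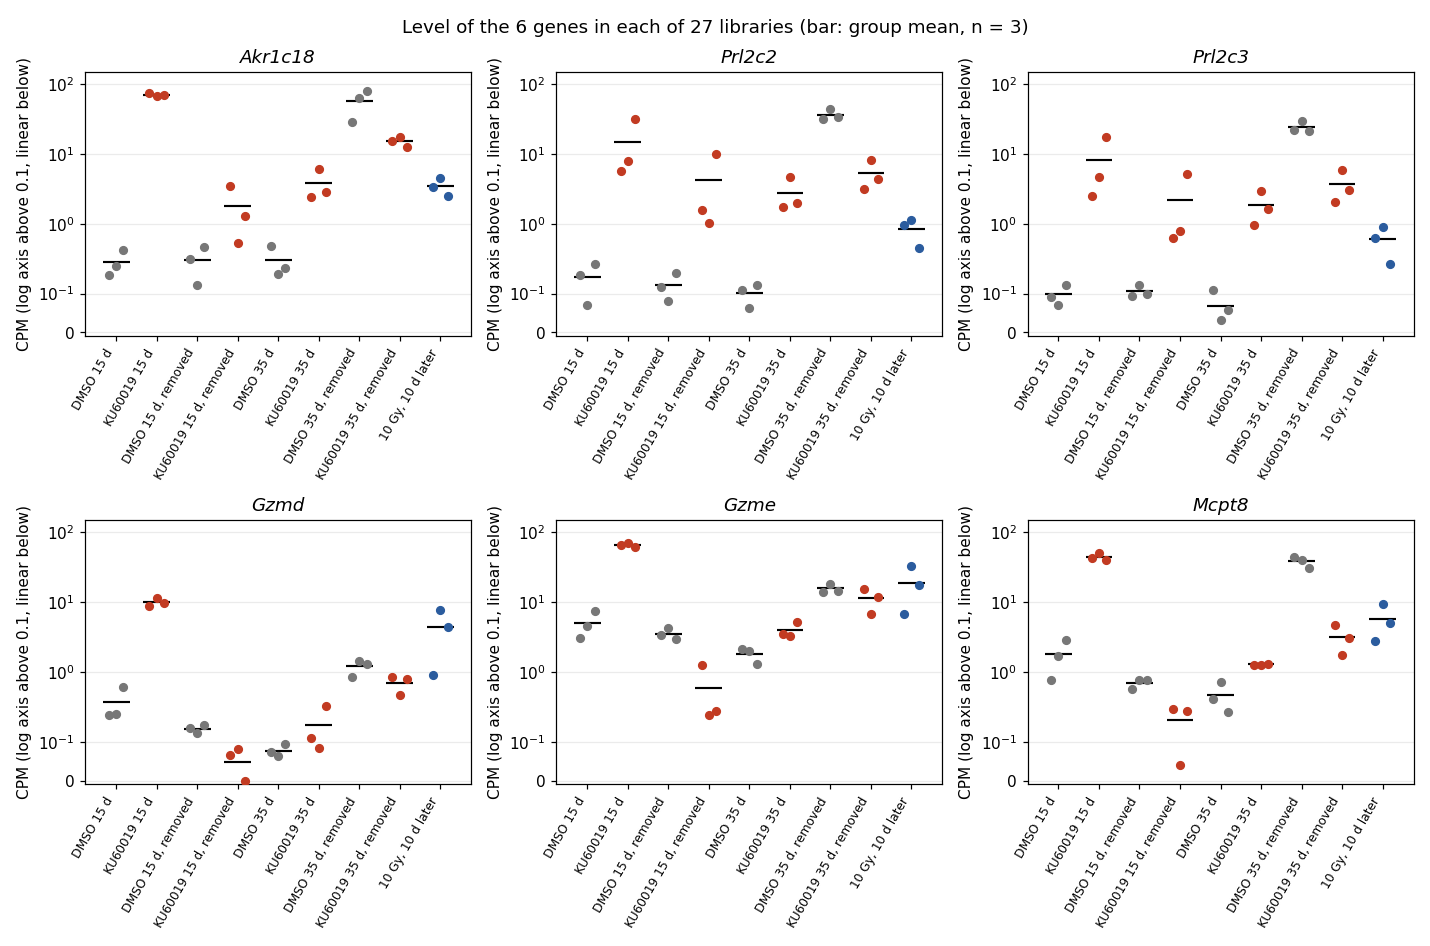
Level of each of the 6 genes in all 27 libraries, as CPM on an axis that is logarithmic above 0.1 and linear below, by treatment group, with each library as a point and the group mean as a bar (n = 3). All 6 genes were high in KU60019 15 d, and Akr1c18, Mcpt8 and the proliferins also in DMSO 35 d removed, while the other 3 DMSO groups stayed low.

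Proliferin RNA was most abundant in DMSO 35 d removed, where the 3 libraries held 31.2, 44.3 and 33.9 CPM of Prl2c2 and 22.1, 29.2 and 21 CPM of Prl2c3. KU60019 15 d came next, with 5.67, 8.02 and 31.4 CPM of Prl2c2 and 2.54, 4.67 and 17.5 CPM of Prl2c3. S6_716 thus stood well above the other 2 of that group and touched the range of DMSO 35 d removed for Prl2c2, though not for Prl2c3. In the other 3 DMSO groups neither gene was above 0.261 CPM in any library. The groups in between were the remaining KU60019 groups and the irradiated cells.

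KU60019 35 d removed held 5.28 ± 2.70 CPM of Prl2c2 and 3.69 ± 2.03 CPM of Prl2c3. After 15 d of KU60019 and its removal, Prl2c2 was at 1.60, 1.03 and 9.90 CPM and Prl2c3 at 0.620, 0.780 and 5.14 CPM, with S12_716 above the rest. Under KU60019 for 35 d, Prl2c2 was at 1.71, 4.66 and 1.97 CPM, with S17_715 highest. These 3 groups overlapped, and with end numbers ignored their means did not differ beyond the spread between libraries. Within each end number, both genes were higher in KU60019 35 d removed than in KU60019 35 d. Prl2c2 was at 3.13, 8.3 and 4.41 CPM against 1.71, 4.66 and 1.97 CPM. Prl2c3 was at 2.08, 5.98 and 3.02 CPM against 0.968, 2.98 and 1.64 CPM. With the numbers as a block, edgeR still called neither gene. KU60019 15 d removed had no steady order against either group, and S12_716 shares its end number with S6_716. Irradiated cells held 0.966, 1.14 and 0.444 CPM of Prl2c2 and 0.617, 0.906 and 0.266 CPM of Prl2c3. They lay above all libraries of the 3 low DMSO groups and below those of KU60019 35 d, and overlapped KU60019 15 d removed. Summed over both genes, the level ran from 0.170 ± 0.0672 CPM in DMSO 35 d to 60.6 ± 11.2 CPM in DMSO 35 d removed, with 23.3 ± 22.3 CPM in KU60019 15 d.

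Gzme led in KU60019 15 d, with 65.7, 69.9 and 61.2 CPM in the 3 libraries, against 3.11, 4.52 and 7.58 CPM in DMSO 15 d. Irradiated cells spread widely, at 6.84, 32.5 and 17.7 CPM. DMSO 35 d removed held 14, 18.5 and 14.6 CPM, and KU60019 35 d removed 15.6, 6.67 and 11.9 CPM. These last 3 groups overlapped one another, and the lowest irradiated library lay within the range of DMSO 15 d. Below them came KU60019 35 d at 3.45, 3.23 and 5.15 CPM, DMSO 15 d removed at 3.55 ± 0.628 CPM and DMSO 35 d at 1.82 ± 0.438 CPM. The lowest group was KU60019 15 d removed, with 1.24, 0.246 and 0.280 CPM, all below every library of the other 8 groups.

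Gzmd had the same groups at the top, with 8.81, 11.4 and 9.71 CPM in KU60019 15 d and 0.912, 7.83 and 4.48 CPM in irradiated cells. DMSO 35 d removed held 0.838, 1.46 and 1.32 CPM, and no other group mean was above 0.705 ± 0.209 CPM, that of KU60019 35 d removed. KU60019 15 d removed was again lowest, with 4 counts over its 3 libraries, of which 1 had none. With counts that low, the order of the lower groups is within counting error. The count of Gzme was 6.52 times that of Gzmd in KU60019 15 d and 4.38 times in irradiated cells, but 12.5 to 25.3 times in the other 7 groups. Every library of KU60019 15 d (6.16 to 7.47) was below every library of the 4 DMSO groups (11.1 to 32.0) in that ratio.

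Mcpt8 was high in KU60019 15 d, at 42.6, 50.2 and 39.7 CPM, and in DMSO 35 d removed, at 44.0, 40.6 and 31.1 CPM, and these groups overlapped. Irradiated cells held 2.79, 9.55 and 5.06 CPM and KU60019 35 d removed 4.75, 1.75 and 3.04 CPM. DMSO 15 d held 0.763, 1.72 and 2.88 CPM, and KU60019 35 d 1.28, 1.25 and 1.31 CPM. These 4 groups overlapped their neighbours in the order. At the bottom were DMSO 15 d removed at 0.702 ± 0.117 CPM, DMSO 35 d at 0.467 ± 0.233 CPM and KU60019 15 d removed at 0.205 ± 0.142 CPM. In DMSO 35 d removed the count of Mcpt8 was 2.36 times that of its neighbour Gzme (2.13 to 3.13 over libraries), whereas it was 0.677 times in KU60019 15 d and 0.201 to 0.356 times in the other 7 groups.

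Akr1c18 reached 74.0, 67.5 and 69.8 CPM in KU60019 15 d and 28.8, 63.2 and 80.9 CPM in DMSO 35 d removed. The lowest of the latter, S19_705, is the one with 3.06% ribosomal RNA counts, and the groups overlapped. KU60019 35 d removed held 15.2, 17.6 and 12.4 CPM, apart from the groups above and below it. KU60019 35 d (2.45, 6.05 and 2.85 CPM), irradiated cells (3.33, 4.47 and 2.53 CPM) and KU60019 15 d removed (3.49, 0.534 and 1.31 CPM) overlapped one another. The remaining DMSO groups lay between 0.134 and 0.485 CPM and could not be ordered.

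Levels of different genes can be set side by side only per length, for which the deposited TPM serve. In KU60019 15 d, Gzme reached 121.6 ± 6.99 TPM, Akr1c18 99.7 ± 3.49, Mcpt8 79.4 ± 9.48, Prl2c2 30.9 ± 30.0, Gzmd 17.6 ± 2.48 and Prl2c3 16.6 ± 16.7 TPM. In DMSO 35 d removed the order was another, with Akr1c18 at 59.6 ± 37.3, Prl2c2 at 50.5 ± 18, Mcpt8 at 45.7 ± 7.52, Prl2c3 at 32.5 ± 10.6, Gzme at 19.9 ± 6.54 and Gzmd at 1.5 ± 0.677 TPM. The granzymes thus ranked lowest there on the TPM scale. How reads that fit several copies were counted is not stated, and the TPM of the proliferins, and in part of the granzymes, may be too low or too high. The order of genes within a group is uncertain for that reason.

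**Figure D2:**
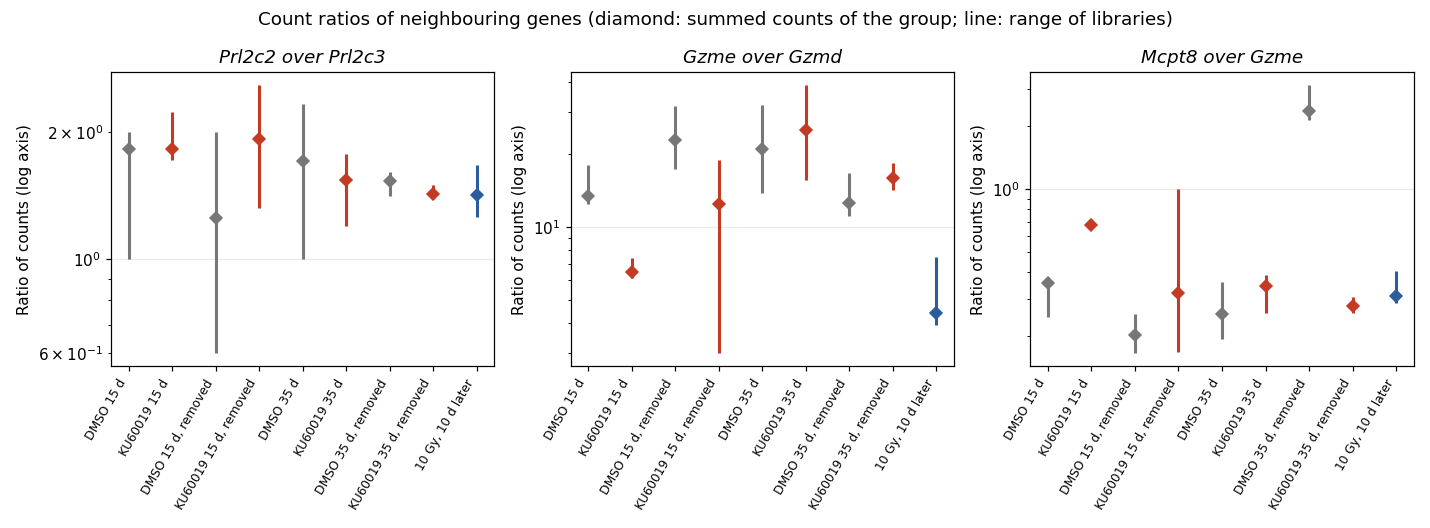
Ratio of counts of Prl2c2 over Prl2c3, Gzme over Gzmd and Mcpt8 over Gzme in each group on a log axis, with the ratio of summed counts as a diamond and the range over libraries with a count in the denominator as a line. Mcpt8 exceeded Gzme by summed counts in DMSO 35 d removed alone (2.36), and Gzme over Gzmd was lowest in irradiated cells (4.38) and KU60019 15 d (6.52).

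Across the 27 libraries, Pearson's r of log2 CPM was 0.99 for Prl2c2 with Prl2c3, 0.93 for Gzmd with Gzme and 0.92 for Gzme with Mcpt8. For Akr1c18, r was 0.91 with Prl2c2 and 0.90 with Prl2c3, against 0.83 with Mcpt8, 0.71 with Gzme and 0.70 with Gzmd, and Prl2c2 had 0.46 with Gzmd and 0.44 with Gzme. The points share libraries, group structure and, for the copies, reads, and the genes were chosen for their common rises.

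By the same measure over 11082 genes, 3 genes were most like Akr1c18, all at 0.95: Tnfrsf26, a decoy death receptor gene, Ccdc86, and Rars, an arginyl-tRNA synthetase gene. For Prl2c2 they were Uchl1 (0.92), Nip7 and Coprs (both 0.90), and for Prl2c3 Uchl1 (0.93), Hspa8 and Ola1 (both 0.91). Uchl1, a ubiquitin hydrolase gene, was at 11.7 CPM in DMSO 15 d, 87.1 in KU60019 15 d and 121 in DMSO 35 d removed. Both granzymes had Il11 (0.95 with Gzmd, 0.92 with Gzme), Mmd (0.90 and 0.91) and Fjx1 (0.89 and 0.88). Il11, a cytokine gene, was at 239 CPM in KU60019 15 d, 114 in irradiated cells, 27.8 in DMSO 35 d removed and 3.33 in KU60019 15 d removed. Mcpt8 was most like Tnfrsf23 (0.90), Slc6a12 and Nop2 (both 0.89). By Spearman's rho the choice was another, with 0 of these 3 genes kept for Akr1c18 and 1 of 3 for each other member.

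The first comparison sets continued inhibition against withdrawal at an equal time, 35 d after the start, and neither group was used to choose the genes. KU60019 35 d had more Gzme and Mcpt8 RNA than KU60019 15 d removed, by 2.63 ± 0.55 (adjusted p = 0.00119) and 2.60 ± 0.63 (adjusted p = 0.00355). For both genes every library of the first group lay above every library of the second, and without S10_705 of KU60019 15 d removed the difference in Gzme was 3.87. In all, 2 of the 6 genes rose and 0 fell, where 18.1% of all tested genes rose and 20.1% fell, 38.2% being changed. The median of the 6 was 1.28, against 0.01 over all genes. Gzmd stood at 1.51 ± 1.00 (adjusted p = 0.238) on few counts, and it did not pass the filter in a fit of only these groups. Prl2c2 (-0.56 ± 0.66, adjusted p = 0.524) and Prl2c3 (-0.19 ± 0.68, adjusted p = 0.843) were not called, and without S12_716 of KU60019 15 d removed, which held most of their RNA in that group, the values were 1.07 and 1.41 (adjusted p = 0.193 and 0.117). Akr1c18 was at 1.05 ± 0.48 (adjusted p = 0.0832), and at 2.07 (adjusted p = 0.00367) without S10_705 of KU60019 15 d removed. The mitochondrial share of counts, 5.08% or more in KU60019 35 d, differed between these groups too, and its part in the result was not tested.

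Akr1c18 and the granzymes were higher 20 d after removal of KU60019 than at the end of the 35 d exposure. Between KU60019 35 d and KU60019 35 d removed, Akr1c18 rose by 1.99 ± 0.44 (adjusted p = 0.0068), Gzmd by 2.17 ± 0.66 (adjusted p = 0.0349) and Gzme by 1.55 ± 0.45 (adjusted p = 0.0301), with 2.79 for Gzmd without S18_716 of KU60019 35 d. Their libraries did not overlap between the groups. These 3 of 6 genes were higher and 0 lower, on a background of 12.6% changed, 5.77% higher and 6.82% lower, and the median of the 6 was 1.43, against 0.00 over all genes. Mcpt8 was at 1.31 ± 0.45 (adjusted p = 0.0575), Prl2c2 at 0.91 ± 0.65 (adjusted p = 0.358) and Prl2c3 at 0.98 ± 0.66 (adjusted p = 0.325), and edgeR called none of them. For Mcpt8, DESeq2 (adjusted p = 0.0282) and edgeR on only the compared groups (adjusted p = 0.0283) made the call. Without S16_705 of KU60019 35 d no call held (adjusted p = 0.0578 for Akr1c18, 0.178 for Gzmd and 0.135 for Gzme). Gzmd and Gzme were also lost without S17_715 of that group (adjusted p = 0.131 and 0.105) and without S22_705 (0.0972 and 0.124) or S24_716 (0.122 and 0.0959) of KU60019 35 d removed, while Mcpt8 was called without S23_715 (1.60, adjusted p = 0.028). The mitochondrial share of counts was 2.96% to 3.31% in KU60019 35 d removed, against 5.08% to 6.61% in KU60019 35 d, and its part in the result was not tested. The harvests lie 20 d apart, so time in culture and removal cannot be told apart here.

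After 15 d of KU60019 and 20 d without it, the proliferins and Gzme lay on opposite sides of the matched DMSO group. That DMSO group is a later culture too, but all 6 genes were low in it, so the rise behind the choice was not seen there. Prl2c2 was higher by 4.88 ± 0.91 (adjusted p = 0.00038), Prl2c3 by 4.23 ± 0.92 (adjusted p = 0.001) and Akr1c18 by 2.56 ± 0.60 (adjusted p = 0.0018), each with every KU60019 library above every DMSO library. Gzme was lower, at -2.49 ± 0.55 (adjusted p = 0.00117), and so was Mcpt8, at -1.74 ± 0.67 (adjusted p = 0.0357), while Gzmd stood at -1.51 ± 0.98 (adjusted p = 0.21). In a fit of only these groups Gzmd did not pass the filter. So 3 genes rose and 2 fell, with 24.7% of tested genes higher and 24% lower (48.7% changed), and the median of the 6 was 0.53, against -0.01 over all genes. The call on Mcpt8 was lost without S8_715 (adjusted p = 0.0782) or S9_716 (0.0705) of the DMSO group and without S11_715 (-1.29, adjusted p = 0.165) or S12_716 (0.0516) of the KU60019 group. The other 4 calls held with each library left out, but without S12_716 Prl2c2 was at 3.24 and Prl2c3 at 2.63, and without S10_705 Akr1c18 was at 1.54 and Gzme at -3.74. On the TPM scale with limma, Akr1c18 was at 0.86 (adjusted p = 0.0865).

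**Figure D3:**
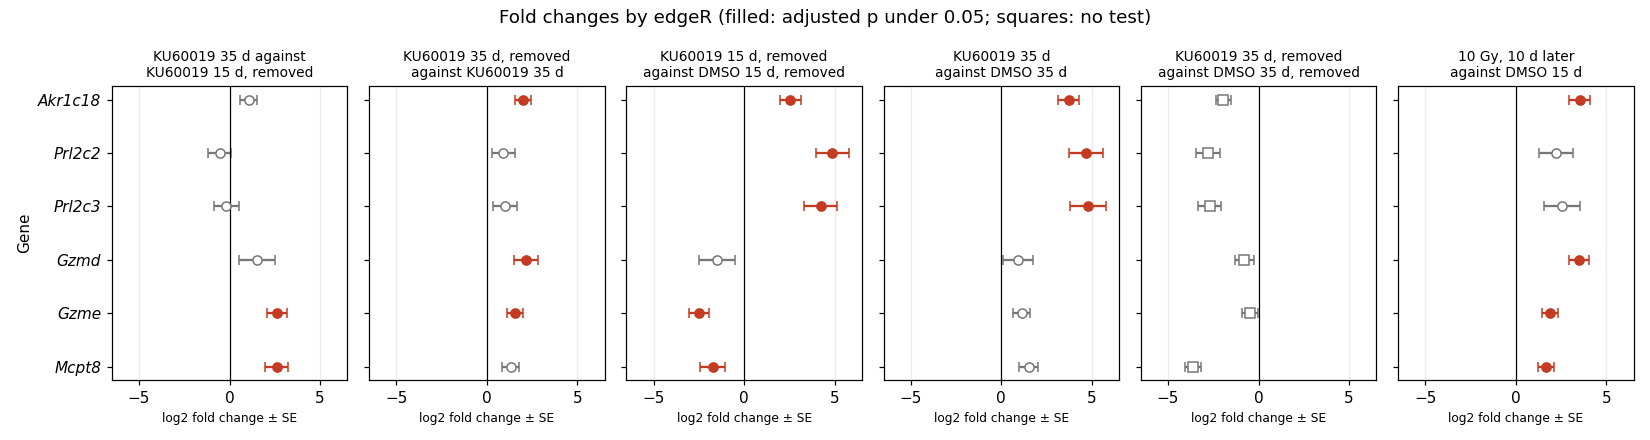
Log2 fold change ± SE of the 6 genes by edgeR in 6 comparisons, with filled points at adjusted p under 0.05. Those of KU60019 35 d against DMSO 35 d and of irradiated cells against DMSO 15 d are not independent of the choice of genes. Prl2c2 (4.88) and Gzme (-2.49) lay on opposite sides of 0 in KU60019 15 d removed against DMSO 15 d removed. Squares mark the comparison read with no test, and no gene lay above 0 in KU60019 35 d removed against DMSO 35 d removed.

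KU60019 35 d against DMSO 35 d shares the DMSO group against which late culture was set when the genes were picked, so the choice favours a rise. The adjusted p-values and calls of the 6 genes in it are not independent of that choice and are given as description. Akr1c18 rose by 3.72 ± 0.58 (adjusted p = 0.000117), Prl2c2 by 4.66 ± 0.95 (adjusted p = 0.00143) and Prl2c3 by 4.79 ± 1.00 (adjusted p = 0.00176), with no overlap of libraries. The proteases stood at 0.92 ± 0.85 (Gzmd, adjusted p = 0.484), 1.12 ± 0.48 (Gzme, adjusted p = 0.109) and 1.51 ± 0.53 (Mcpt8, adjusted p = 0.0505), and edgeR called none of them. Mcpt8 was called by DESeq2 (adjusted p = 0.0145) and by edgeR with RLE scaling (adjusted p = 0.0484). That is 3 genes higher and 0 lower, where 9.70% of tested genes were higher and 8.40% lower (18.1% changed), with a median of 2.61, against -0.01 over all genes. Without S14_715 of DMSO 35 d Mcpt8 was called (1.98, adjusted p = 0.0425). In a fit of only these 6 libraries Gzme (adjusted p = 0.0161) and Mcpt8 (adjusted p = 0.0177) were called too, and Gzmd did not pass the filter. The mitochondrial share of counts was 1.61% to 1.73% in DMSO 35 d, against 5.08% or more in KU60019 35 d, and its part in the result was not tested.

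A direct test asked whether the KU60019 effect differed between 35 d of continued exposure and 15 d with removal. This difference was added after the levels had been seen, and one of its 4 groups, DMSO 35 d, had served in the choice, which favours a positive difference. Its adjusted p-values for the 6 genes are not independent of that choice. For Gzme the effect was higher under continued exposure by 3.62 ± 0.73 (adjusted p = 0.00281) and for Mcpt8 by 3.25 ± 0.85 (adjusted p = 0.0145). Of the 6 genes 2 were higher and 0 lower, where 7.99% of tested genes were higher and 7.95% lower (15.9% changed), with a median of 1.79, against 0.02 over all genes. Gzmd stood at 2.42 ± 1.30 (adjusted p = 0.19), Akr1c18 at 1.16 ± 0.89 (adjusted p = 0.362), Prl2c2 at -0.22 ± 1.60 (adjusted p = 0.939) and Prl2c3 at 0.56 ± 1.52 (adjusted p = 0.82). A difference in the proliferin effect was not detectable with errors of that size. In a fit of only these groups Gzmd did not pass the filter. Both calls held with each of the 12 libraries left out (adjusted p from 0.000436 to 0.0106 for Gzme and from 0.0113 to 0.0486 for Mcpt8), and without S10_705 the value for Gzme was 4.86.

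KU60019 35 d removed against DMSO 35 d removed shares the late DMSO group in which the genes were high by choice, which favours a fall, so the values of the 6 genes are given with no test. Mcpt8 was at -3.60 ± 0.44 on the log2 scale, Prl2c2 at -2.79 ± 0.66, Prl2c3 at -2.71 ± 0.66 and Akr1c18 at -1.94 ± 0.43, and every KU60019 library of these 4 genes lay below every DMSO library. Gzmd was at -0.78 ± 0.54 and Gzme at -0.46 ± 0.43, with overlap of libraries. The median of the 6 was -2.33, against 0.00 over all genes, of which 24.4% were higher and 24.5% lower (48.9% changed). Some markers of cell types differed in this comparison too. Krt18 fell by 2.80 ± 0.76 (adjusted p = 0.00422), but its SD in DMSO 35 d removed (1.95 CPM) exceeded its mean (1.87 CPM), so that value may rest on a single library. Ascl2, the other trophoblast marker tested, stood at -0.61 ± 0.60 (adjusted p = 0.416). Nkg7, the only lymphocyte marker tested, fell by 1.46 ± 0.57 (adjusted p = 0.0381), at 0.109 against 0.325 CPM. The fibroblast matrix genes Dcn (3.92 ± 0.46, adjusted p = 4.19e-07) and Lum (2.65 ± 0.36, adjusted p = 2.77e-06) rose and Col1a1 fell by 1.47 ± 0.25 (adjusted p = 4.39e-05). Their part in the values of the 6 genes was not tested.

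Irradiated cells against DMSO 15 d share the low group of the choice, which favours a rise. For the 6 genes the adjusted p-values and counts of calls are therefore not independent of the choice and are given as description. Akr1c18 rose by 3.54 ± 0.58 (adjusted p = 9.37e-05) and Gzmd by 3.51 ± 0.55 (adjusted p = 5.51e-05), with no overlap of libraries. Gzme, at 1.89 ± 0.45 (adjusted p = 0.00269), and Mcpt8, at 1.67 ± 0.43 (adjusted p = 0.00485), also rose, although the irradiated S25_705 lay within the DMSO range for both. That makes 4 genes higher and 0 lower, where 14.1% of tested genes were higher and 16.8% lower (30.9% changed), with a median of 2.39, against -0.01 over all genes. Prl2c2 (2.23 ± 0.94, adjusted p = 0.0762) and Prl2c3 (2.55 ± 1.01, adjusted p = 0.0592) were not called, while DESeq2 called both (2.28, adjusted p = 0.0208, and 2.60, adjusted p = 0.0079). The irradiated S26_715 was the highest for all 6 genes, and without it Gzmd was at 2.78, Gzme at 1.26 (adjusted p = 0.0437) and Mcpt8 at 1.10 (adjusted p = 0.0734). Without S3_716 of DMSO 15 d Gzmd was at 4.13. In a fit of only these 6 libraries Prl2c2 was called (adjusted p = 0.0237) and Gzme (adjusted p = 0.0523) and Mcpt8 (adjusted p = 0.0753) were not. Prl2c3 did not pass the filter in that fit. The irradiated group also had the highest sum of cytotoxic lymphocyte markers, 0.532 to 1.23 CPM. That sum was mostly Nkg7, at a group mean of 0.598 CPM against 0.0972 CPM in DMSO 15 d. The part of these markers in the granzyme values was not tested.

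The relatives of the 6 genes were read from family lists. Of 26 prolactin family genes 6 were tested, which beside the proliferin pair were Prl3a1, Prl2c1, Prl2c5 and Prl8a9, the last 2 named after their values had been seen. Prl3a1, a placental prolactin-like hormone gene, had another order of groups than the proliferins. It was at 9.89 CPM in KU60019 15 d and 0.582 in DMSO 15 d, but at 14.9 CPM in KU60019 15 d removed, 14.3 in KU60019 35 d and 10.6 in KU60019 35 d removed, with 4.07 in DMSO 35 d removed. Prl3a1 was higher in KU60019 35 d than in DMSO 35 d (2.89 ± 0.64, adjusted p = 0.00272) and in irradiated cells than in DMSO 15 d (3.18 ± 0.70, adjusted p = 0.00147). Prl2c1, a proliferin copy, had its highest mean in DMSO 35 d removed, at 3.10 CPM. Without the 2 members, the other 4 tested genes gave 3 higher calls in KU60019 35 d against DMSO 35 d (9.70% of all tested genes higher), 2 in KU60019 15 d removed against DMSO 15 d removed (24.7% higher), 2 in irradiated cells against DMSO 15 d (14.1% higher) and 2 lower calls in KU60019 35 d removed against DMSO 35 d removed (24.5% lower). The other 2 comparisons, between KU60019 groups, gave 0 calls among them by edgeR. The calls in KU60019 15 d removed and in KU60019 35 d removed against their DMSO groups were those of Prl2c1 and Prl2c5. The Prl2c2 transcript matched that of Prl2c1 at 92.7% and that of Prl2c5 at 96.6% of aligned bases, so their counts may share reads. Over all 27 libraries Prl2c5 had only 233 counts and Prl8a9 135.

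Of 18 granzymes and mast cell proteases 6 were tested, the 3 members and Gzmm, Gzmg and Gzmf. Gzmg and Gzmf, which lie in the same cluster as Gzmd and Gzme, peaked in KU60019 15 d at 1.52 and 1.10 CPM. Gzmg had 0 counts in KU60019 15 d removed, against 0.104 CPM in KU60019 35 d. Gzmm, which lies outside that cluster, was highest in KU60019 35 d removed, at 1.55 CPM, and was called higher in 4 of the 6 comparisons, in which 5.77%, 24.7%, 24.4% and 14.1% of all tested genes were higher. Among them were KU60019 35 d removed against KU60019 35 d (1.22 ± 0.30, adjusted p = 0.0109) and KU60019 15 d removed against DMSO 15 d removed (1.25 ± 0.31, adjusted p = 0.0027), the latter opposite in sign to Gzme.

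Of 9 Akr1c genes 4 were tested, and the other 3 had other orders of groups than Akr1c18. Akr1c13 was highest in KU60019 35 d removed (13.2 CPM) and KU60019 35 d (10.0 CPM) and lowest in DMSO 35 d removed (1.73 CPM), where Akr1c18 was near its highest. Akr1c12 had the same highest and lowest group, with 1.93 and 0.165 CPM. Akr1c14, the gene of a 3-alpha-hydroxysteroid dehydrogenase, had 13.4 ± 18.7 CPM in KU60019 15 d removed and at most 3.62 CPM elsewhere. In KU60019 35 d removed against DMSO 35 d removed, these 3 genes rose (Akr1c13 by 2.89 ± 0.46, adjusted p = 1.9e-05, Akr1c12 by 3.45 ± 0.61, adjusted p = 8.04e-05, and Akr1c14 by 2.21 ± 0.76, adjusted p = 0.0195), where Akr1c18 was at -1.94. Akr1c13 and Akr1c12 also rose in KU60019 35 d against KU60019 15 d removed (1.86 ± 0.43, adjusted p = 0.00239, and 2.80 ± 0.57, adjusted p = 0.000861). Akr1c14 stood at -1.89 ± 0.62 there (adjusted p = 0.021). The SD of Akr1c14 in KU60019 15 d removed exceeded its mean, so that value may rest on a single library. It was not followed with single libraries left out.

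**Figure D4:**
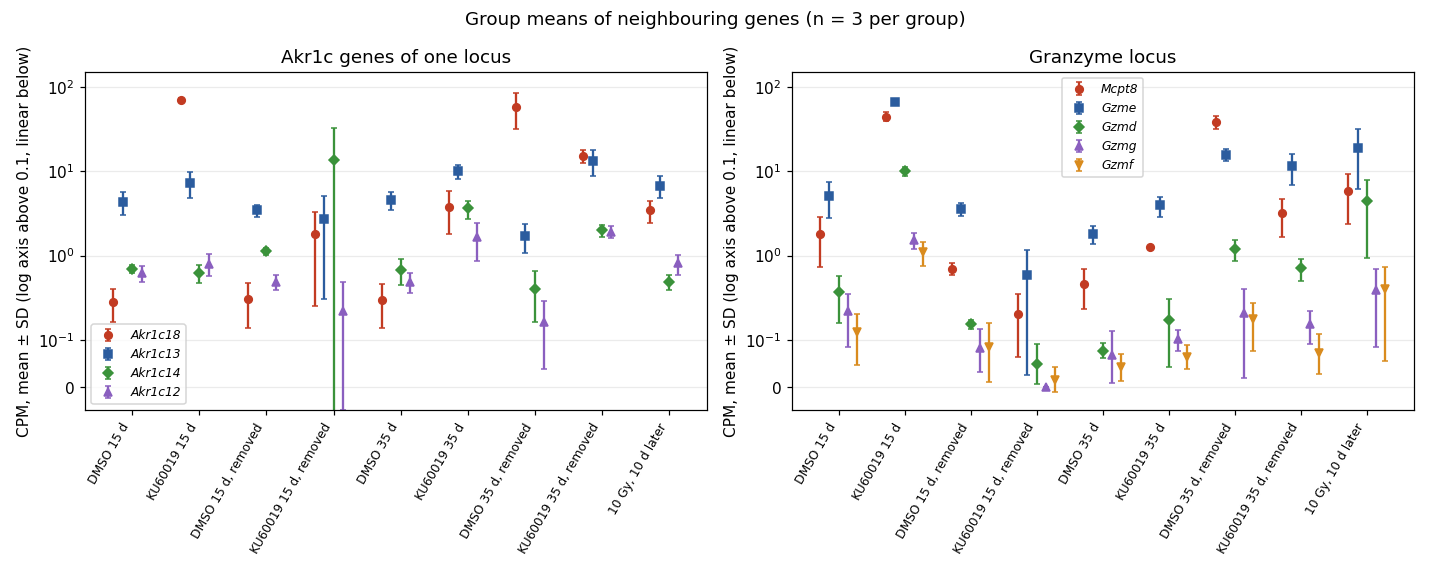
Group means ± SD (n = 3) in CPM, on an axis that is logarithmic above 0.1 and linear below, of Akr1c18 with Akr1c13, Akr1c14 and Akr1c12 (left) and of Mcpt8 with Gzme, Gzmd, Gzmg and Gzmf (right). Akr1c13 was lowest in DMSO 35 d removed (1.73 CPM), where Akr1c18 was at 57.7 CPM, and the 4 granzymes had their highest means in KU60019 15 d.

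Further lists held receptor, storage and enzyme genes linked to these products or to their families. Of the 9 genes of proliferin receptors and prolactin receptor signalling 8 were tested. The one left out was Prlr, the prolactin receptor gene, with 107 counts in all libraries and at most 0.524 CPM as a group mean, named after its values had been seen. Igf2r, the proliferin receptor gene, had group means of 71.3 to 217 CPM, highest in DMSO 15 d. The other genes of highest level in the list were M6pr, of the second mannose 6-phosphate receptor (137 to 266 CPM), Ghr, of the growth hormone receptor (71.6 to 278 CPM), and Jak2, of a kinase that both hormone receptors use (35.8 to 70.3 CPM). Igf2r fell by 0.70 ± 0.17 (adjusted p = 0.00569) in KU60019 35 d against DMSO 35 d and fell by 0.63 ± 0.17 (adjusted p = 0.00455) in KU60019 15 d removed against DMSO 15 d removed, both comparisons in which the proliferins rose. In irradiated cells Igf2r fell by 1.06 ± 0.17 (adjusted p = 6.85e-05). Over the list, 3 genes rose and 2 fell in the first of these comparisons, 1 rose and 4 fell in the second, and 2 rose and 4 fell in irradiated cells, with medians of -0.01, -0.22 and -0.49, where 18.1%, 48.7% and 30.9% of all tested genes changed. In KU60019 35 d removed against DMSO 35 d removed 4 rose and 1 fell (median 0.32, 48.9% of all genes changed). Between the KU60019 groups, 3 rose and 0 fell under continued exposure against removal after 15 d (median 0.19, 38.2% of all genes changed), and 0 rose and 2 fell on removal after 35 d (median -0.10, 12.6% of all genes changed).

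Granzymes need serglycin for storage and cathepsin C for activation, and serpins of the Serpinb9 and Serpinb6 groups inhibit granule proteases. Of 9 such genes 8 were tested, all but Prf1. Ctsc, the cathepsin C gene, was highest in KU60019 15 d removed (145 CPM), the group with the least Gzme, and rose there against DMSO 15 d removed by 1.52 ± 0.20 (adjusted p = 3.7e-05). Srgn, the serglycin gene, was lowest in DMSO 35 d removed (0.251 CPM) and highest in KU60019 35 d (4.67 CPM). Ctsc and Srgn are named here after their values had been seen. Among the inhibitors, Serpinb6a had group means of 412 to 1280 CPM, Serpinb6b 49.1 to 295 CPM and Serpinb9b 22.6 to 133 CPM, and Serpinb9 was at 454 CPM in DMSO 35 d and 44.1 CPM in DMSO 35 d removed. Over the list, 4 genes rose and 1 fell in KU60019 35 d against KU60019 15 d removed (median 0.96), 0 and 3 in KU60019 35 d removed against KU60019 35 d (median -0.70), and 3 and 0 in KU60019 35 d against DMSO 35 d (median 0.49), where 38.2%, 12.6% and 18.1% of all tested genes changed. In KU60019 15 d removed against DMSO 15 d removed 3 rose and 4 fell (median -0.54), in KU60019 35 d removed against DMSO 35 d removed 4 and 3 (median 0.86), and in irradiated cells 0 and 2 (median -0.36), where 48.7%, 48.9% and 30.9% of all tested genes changed.

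The 15 genes of progesterone and steroid handling were all tested. Cyp11a1, the gene of the enzyme that starts steroid synthesis, reached at most 0.691 CPM and Pgr, the progesterone receptor gene, at most 2.19 CPM as a group mean, both in KU60019 35 d and both named after their values had been seen. The genes of highest level were Pgrmc1 (166 to 282 CPM) and Pgrmc2 (150 to 248 CPM), of membrane proteins that bind progesterone or heme, Nr3c1, of the glucocorticoid receptor (43.0 to 92.7 CPM), and Hsd11b1. Hsd11b1, which encodes the enzyme that activates glucocorticoids, was at 484 CPM in KU60019 35 d removed and 15.8 CPM in DMSO 35 d removed, a difference of 4.93 ± 0.59 (adjusted p = 5.47e-07), where Akr1c18 was at -1.94. Higher and lower calls numbered 6 and 1 in KU60019 35 d against KU60019 15 d removed, 2 and 2 on removal after 35 d, 4 and 1 in KU60019 35 d against DMSO 35 d, 4 and 3 in KU60019 15 d removed against its DMSO group, 6 and 3 in KU60019 35 d removed against its DMSO group, and 2 and 4 in irradiated cells. In the same order, 38.2%, 12.6%, 18.1%, 48.7%, 48.9% and 30.9% of all tested genes changed.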

How the data were processed

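Total RNA of 27 libraries was prepared with a TruSeq kit, per the labels' protocols. The authors deposited raw counts per gene, for which the submitters' processing notes name featureCounts and the build mm10, and TPM values for 48082 of the 48440 genes. Aligner, annotation release, versions and use of strand were not stated, and near copies and overlapping genes are therefore uncertain. Of the gene IDs, 48058 had a symbol and a GENCODE M21 position. Groups and numbers come from the sample titles. The members and lists were chosen with earlier results of these data known.

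The counts entered a single edgeR 4.0.16 fit (R 4.3.3) of the 9 group means, with TMM scaling, filterByExpr at a minimum count of 10, robust dispersions and the quasi-likelihood F-test. SE was taken as the log2 fold change over the root of F, which is an approximation. CPM use TMM library sizes. Late DMSO culture had been planned for as DMSO 35 d, but the 6 genes were high in DMSO 35 d removed, and both groups were treated as used by the choice. Named were the 6 members, up to 4 listed genes of highest mean CPM, listed genes of a member's cluster with at least 1 CPM in a group and the 3 genes of highest Pearson r with each member (log2 CPM, prior count 2, at least 5 CPM in the highest group).

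Alternatives were no filter, DESeq2 1.42.0, scaling by RLE or by library size alone, the numbers as a block, only the compared groups, limma 3.58.1 on log2(TPM + 1) with a minimum of 1 TPM in 3 libraries, Spearman's rho for likeness and each library left out. Added after the data were seen were a fit without the 4 libraries above 0.4% ribosomal RNA and the test of the difference between KU60019 effects. Same-numbered libraries deviated together weakly in KU60019 35 d against KU60019 15 d removed (r = 0.36, 0.12 and 0.23), and not in every pair elsewhere. The numbers may pair the samples there, but these values do not settle it. The numbers come from the titles, which do not say what they mark. All replicates differed by more than sampling noise (chi-square per gene at least 7.18). In data simulated for that comparison over 18204 genes, 7.46%, 56.7% and 69.7% of the 1.5-, 2- and 4-fold changes were recovered by edgeR, with 10 unchanged genes among 99 called. For DESeq2 the shares were 19.4%, 61.2% and 77.3%, with 26 unchanged of 131, and for limma (15419 genes) 7.46%, 58.2% and 74.2%, with 8 of 101.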

Additional observations from a re-analysis of the deposited data

Results flagged for a closer look

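The KU60019 effect on Gzme and Mcpt8 was higher under continued than after withdrawn exposure in a test added after the levels had been seen. Gzme was 3.62 ± 0.73 higher on the log2 scale under 35 d of continued exposure than after 15 d with removal, each against its DMSO group (edgeR, adjusted p = 0.00281), and Mcpt8 3.25 ± 0.85 higher (edgeR, adjusted p = 0.0145). The difference contains DMSO 35 d, a low group of the contrast by which the genes were chosen. The choice favours its direction, and its adjusted p-values are not independent of the choice. In KU60019 35 d against DMSO 35 d edgeR called neither gene (Gzme at 1.12, adjusted p = 0.109, and Mcpt8 at 1.51, adjusted p = 0.0505). In KU60019 15 d removed against DMSO 15 d removed Gzme stood at -2.49 and Mcpt8 at -1.74. In both comparisons the libraries of the KU60019 groups did not overlap those of DMSO.

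Between continued 35 d exposure and removal at 35 d, the KU60019 libraries of 4 genes changed from above to below the matched DMSO libraries. How many of all tested genes changed side in this way was not counted. By edgeR, 18.1% of all tested genes differed from DMSO under continued exposure and 48.9% after removal. The KU60019 means of the 4 genes did not fall on removal. They went from 3.79 to 15.1 CPM for Akr1c18 and from 2.78 to 5.28 for Prl2c2. Those of Prl2c3 went from 1.86 to 3.69 CPM and those of Mcpt8 from 1.28 to 3.18. Among these 4 edgeR called the rise of Akr1c18 alone. The DMSO means went from 0.301 to 57.7, 0.103 to 36.5, 0.0668 to 24.1 and 0.467 to 38.6 CPM, genes in that order. The change of side was not tested because DMSO 35 d removed served to choose the genes. Akr1c18 stood at 3.72 under continued 35 d exposure and 2.56 after removal at 15 d, but at -1.94 after removal at 35 d. Prl2c2 stood at 4.66, 4.88 and -2.79 in the same order, and Prl2c3 at 4.79, 4.23 and -2.71. Mcpt8 stood at 1.51 under continued exposure, a value not called by edgeR, and at -3.60 after removal at 35 d.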

How the results depend on the processing

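Over all alternatives and left-out libraries, 571 of 619 fold changes of the 6 genes kept their direction and side of the threshold, 23 lost and 14 gained a call, and 11 changed sign, all 11 of values that were not called. The sign changes were Prl2c2 at 0.11 and Prl2c3 at 0.31 with limma on TPM in KU60019 35 d against KU60019 15 d removed, where without single libraries Prl2c2 ran from -1.17 to 1.07 and Prl2c3 from -0.74 to 1.41, and Prl2c2 in the difference between KU60019 effects, at 0.09 with the replicate block, 0.18 with limma and from -0.83 to 1.41 without single libraries. The cause was not tested. Levels under other scalings moved by an SD or more in 1 of 108 cases.

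On removal after 35 d, 2352 genes were called, against 1325 without the filter, 1482 with limma on TPM, 4375 with only the compared groups and 629 to 2513 without single libraries, and the members called went from 3 to 1 without the filter, 1 with limma and 0 to 4 without single libraries. In KU60019 35 d against KU60019 15 d removed the count of 7133 became 4222 with only the compared groups and 4362 to 8193 without single libraries. For KU60019 35 d against DMSO 35 d, 3 members became 5 with only the compared groups, and 3381 genes became 1932 to 3586 without single libraries. For KU60019 35 d removed against DMSO 35 d removed, 9130 genes became 5487 with only the compared groups and 5596 without the libraries above 0.4% ribosomal RNA. Fits with fewer libraries have fewer degrees of freedom.

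With the replicate block, edgeR also called Prl2c2 (2.42, adjusted p = 0.0413) and Prl2c3 (2.72, adjusted p = 0.0313) in irradiated cells against DMSO 15 d. Same-numbered libraries hardly deviated together there (r = -0.01, 0.07 and 0.05). The block changed no other call of a member. DESeq2 called Mcpt8 on removal after 35 d (adjusted p = 0.0282) and in KU60019 35 d against DMSO 35 d (adjusted p = 0.0145). Mcpt8 in KU60019 15 d removed against DMSO 15 d removed was lost without the filter (adjusted p = 0.075) and without the libraries above 0.4% ribosomal RNA (adjusted p = 0.0554). Low counts limit Gzmd in most groups. The filter used all groups together, those of the choice included. With only the compared groups, Gzmd did not pass it in KU60019 35 d against KU60019 15 d removed or DMSO 35 d. Nor did Gzmd pass it in KU60019 15 d removed against DMSO 15 d removed, or in the difference between KU60019 effects. Prl2c3 did not pass it in irradiated cells against DMSO 15 d.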
